A study of Homo sapiens with 15 samples.

Results

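The ETS transcription factors are a gene family defined by a shared DNA-binding domain, and 10 of them were followed here by name through the 60721 genes of the count table: ETV1, ETV4, ETV5, ETS1, ETS2, ELF3, EHF, ELF5, ELK3 and ETV6. Poly(A) RNA of MCF10 cells, an established human mammary epithelial line, was sequenced in 15 libraries of 5 genotypes with 3 biological replicates each. The genotypes were the unmodified parental line, an empty vector control, and 3 lines mutated in NF1 with guide RNA 1, with guide RNA 2, or with guides 1 and 2 together. All 5 genotypes were untreated and grew in the same medium, which holds horse serum, EGF, hydrocortisone, cholera toxin and insulin, so the receptor that feeds RAS and ERK was supplied with ligand in the controls too. Whether a line is a single clone or a pool is not given in the sources used here, and neither is whether replicates were separate cultures from the start, so the tests measure the spread between these libraries, which may be partly technical.

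NF1 encodes neurofibromin, a protein that switches RAS off, and the kinase ERK lies downstream of RAS. ETV1, ETV4 and ETV5 form the PEA3 group: their transcripts and proteins are known to accumulate when ERK is active, the repressor CIC holds them down when it is not, and their proteins activate genes of migration and invasion. ELF3, EHF and ELF5 are ETS factors of epithelia: ELF5 drives the secretory luminal fate of the mammary gland, and ELF3 and EHF are linked to epithelial differentiation. ETS1 and ETS2 are activators whose proteins ERK phosphorylates, ELK3 is a ternary complex factor that works with serum response factor, and ETV6 is a repressor. Nearly all ETS proteins bind around the core GGAA.

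RefSeq promoters (build GRCh38.p14) were found for 7 of the 10 genes, in 15 windows. The 250 bases before the start are printed for 6 of these genes: the 3 epithelial members, because they were the lowest of the 10, ETS2 and ETV6, because they were the members that fell, and ETV1, because its window holds a CIC motif. In the first 5 sequences capitals mark the ETS core GGAA or its reverse complement TTCC, and in the ETV1 sequence they mark the CIC octamer TGAATGGA.
ELF5, chr11:34511725-34511974, minus strand: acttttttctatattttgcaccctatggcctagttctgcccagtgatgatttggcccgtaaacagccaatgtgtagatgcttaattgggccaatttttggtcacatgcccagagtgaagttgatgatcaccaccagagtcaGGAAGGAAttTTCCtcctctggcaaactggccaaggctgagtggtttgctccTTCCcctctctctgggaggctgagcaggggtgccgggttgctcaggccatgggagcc
EHF, chr11:34624007-34624256, plus strand: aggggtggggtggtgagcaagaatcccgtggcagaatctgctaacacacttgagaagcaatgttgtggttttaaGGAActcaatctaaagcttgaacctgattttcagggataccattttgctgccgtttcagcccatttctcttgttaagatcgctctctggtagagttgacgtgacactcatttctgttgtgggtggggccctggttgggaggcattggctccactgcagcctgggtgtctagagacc
ELF3, chr1:202010337-202010586, plus strand: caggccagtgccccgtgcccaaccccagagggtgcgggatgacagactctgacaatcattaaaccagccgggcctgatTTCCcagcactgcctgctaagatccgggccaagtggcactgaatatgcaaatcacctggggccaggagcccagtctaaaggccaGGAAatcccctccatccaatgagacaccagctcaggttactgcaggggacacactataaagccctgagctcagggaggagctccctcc
ETS2, chr21:38804933-38805182, plus strand: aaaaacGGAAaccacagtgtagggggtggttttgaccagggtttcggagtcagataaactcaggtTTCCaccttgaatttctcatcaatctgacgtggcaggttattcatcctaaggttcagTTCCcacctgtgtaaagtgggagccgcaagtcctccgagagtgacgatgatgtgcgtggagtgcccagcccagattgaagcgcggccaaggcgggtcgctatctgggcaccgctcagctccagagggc
ETV6, chr12:11649424-11649673, plus strand: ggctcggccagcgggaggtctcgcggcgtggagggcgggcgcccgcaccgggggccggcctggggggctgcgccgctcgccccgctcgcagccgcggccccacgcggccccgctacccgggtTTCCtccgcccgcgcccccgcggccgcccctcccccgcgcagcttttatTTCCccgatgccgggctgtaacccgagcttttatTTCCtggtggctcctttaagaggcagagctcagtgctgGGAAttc
ETV1, chr7:13991426-13991675, minus strand: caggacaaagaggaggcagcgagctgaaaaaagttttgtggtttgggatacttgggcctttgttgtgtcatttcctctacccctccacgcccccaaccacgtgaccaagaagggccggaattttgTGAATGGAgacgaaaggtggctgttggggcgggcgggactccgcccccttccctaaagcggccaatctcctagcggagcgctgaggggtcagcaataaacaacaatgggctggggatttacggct
The 3 printed epithelial windows held fewer CG dinucleotides than the median of 11 over 35116 promoters, with 2 in ELF5, 4 in EHF and 4 in ELF3. Such low numbers were not rare, since 22.9% of promoters held as few as ELF5 and 34.3% as few as EHF and ELF3. A further EHF window held 2. The lowest of the 15 windows was one of ETV1 with 0, as few as in 6.06% of promoters. The printed ETV6 window held 32 and the printed ETS2 window 12. In the printed windows GGAA on either strand occurred 4 times in ELF5, 1 time in EHF, 2 times in ELF3, 3 times in ETS2, 4 times in ETV6 and 3 times in ETV1. The further window of ETS2 held 6 and that of EHF 0, and the other ETV1 windows held 3 to 5. The 4 letters GGAA are frequent, occurring in 92.7% of all promoters with a median of 3 matches. The longer ETS consensus CCGGAAGT, which contains GGAA and was also sought on both strands, lay in none of the 15 windows and in 3.42% of all promoters. The octamers TGAATGAA, TGAATGGA, TCAATGAA and TCAATGGA, the forms of the CIC motif that were sought on both strands, lay in 3.18% of all promoters and in 1 of the 6 ETV1 windows, where the match began at position -125 from the start. A match of letters is a description and not a binding site.

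By GENCODE release 29 on GRCh38, ELF5 (ENSG00000135374, chr11:34478793-34513805, minus strand) and EHF (ENSG00000135373, chr11:34621093-34661057, plus strand) are close neighbours whose start sites lie 107.3 kb apart and point away from each other. ETV1 (ENSG00000006468) lies at chr7:13891228-13991425, ETV4 (ENSG00000175832) at chr17:43527844-43579620 and ETV5 (ENSG00000244405) at chr3:186046308-186110318. ETS2 (ENSG00000157557) lies at chr21:38805307-38824955 and ETV6 (ENSG00000139083) at chr12:11649854-11895402. ETV4 overlaps DHX8 on the opposite strand, a gene at 73.0 to 87.5 CPM, and the use of strand in the counting is not given in the sources used here, so part of the ETV4 reads cannot be assigned with certainty. ELF3 likewise overlaps ELF3-AS1, its antisense transcript, which had 0.267 to 0.877 CPM beside at most 0.336 for ELF3.

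Libraries held 46129559 to 78976917 counts, with a median of 55942785, and 3 counts, the smallest level taken as detectable, were worth 0.038 to 0.065 CPM, the count scaled to the library total. These limits take in counting error alone, because the reads carried no molecular identifiers and need not be separate molecules. NF1 itself was at 141 to 159 CPM in parental, 115 to 133 in empty vector, 43.6 to 51.3 in guide 1, 27.0 to 31.4 in guide 2 and 26.0 to 29.4 with both guides, which goes with the labels. KRT5, a basal keratin, was at 625 CPM or more in every library. Of the other basal markers, KRT6A, LAMB3 and ITGB4 stayed at 309 CPM or more. KRT14 ranged from 6.44 to 1147 CPM, KRT17 from 24.1 to 1622 and TP63 from 0.0542 to 75.8, so basal markers were not all kept. CDH1, the epithelial cadherin, was at 0.0191 to 0.158 CPM in guide 1, at 0.0361 and 0.0434 in guide 2 replicates 1 and 3, at 1.79 in parental replicate 2, and at 14.8 to 127 in the other 9 libraries. The endothelial markers summed to at most 2.82 CPM, the immune markers to at most 6.97, nearly all of it CD14, and the adipocyte markers to at most 0.421, while the mesenchymal markers, led by FN1, summed to 3807 to 21784. Guide 2 replicate 2 stood apart from its group, with 91.4 CPM of CDH1, 4997 of KRT5, and a first principal component score of -91.89 beside 45.96 and 47.80 for its 2 partners. Calls were therefore also counted without guide 2 replicate 2. Parental replicate 2 departed from its group too, with a first principal component score of 25.24 beside -47.22 and -23.37. Its KRT5 was at 862 CPM beside 2997 and 1536. It was kept in the fit without guide 2 replicate 2, so it enters the comparisons with parental cells there.

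The PEA3 group was present in every library, and ELF3 and ELF5 were all but absent. Averaged over the 15 libraries and divided by the length of each gene's exons, ELK3 had the highest level of the 10 genes at 34.8 CPM per kb, followed by ETS1 at 16.0, ETV5 at 12.2, ETS2 at 11.3, ETV4 at 7.49, ETV6 at 2.60, ETV1 at 2.14, EHF at 0.929, ELF3 at 0.0162 and ELF5 at 0. ELF5 had 0 counts in all 15 libraries, which allows a level of up to 0.038 to 0.065 CPM depending on the library. ELF3 had 95 counts in all, spread over 14 libraries. EHF was thus the only one of the 3 epithelial members with more than 1 CPM.

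**Figure D1:**
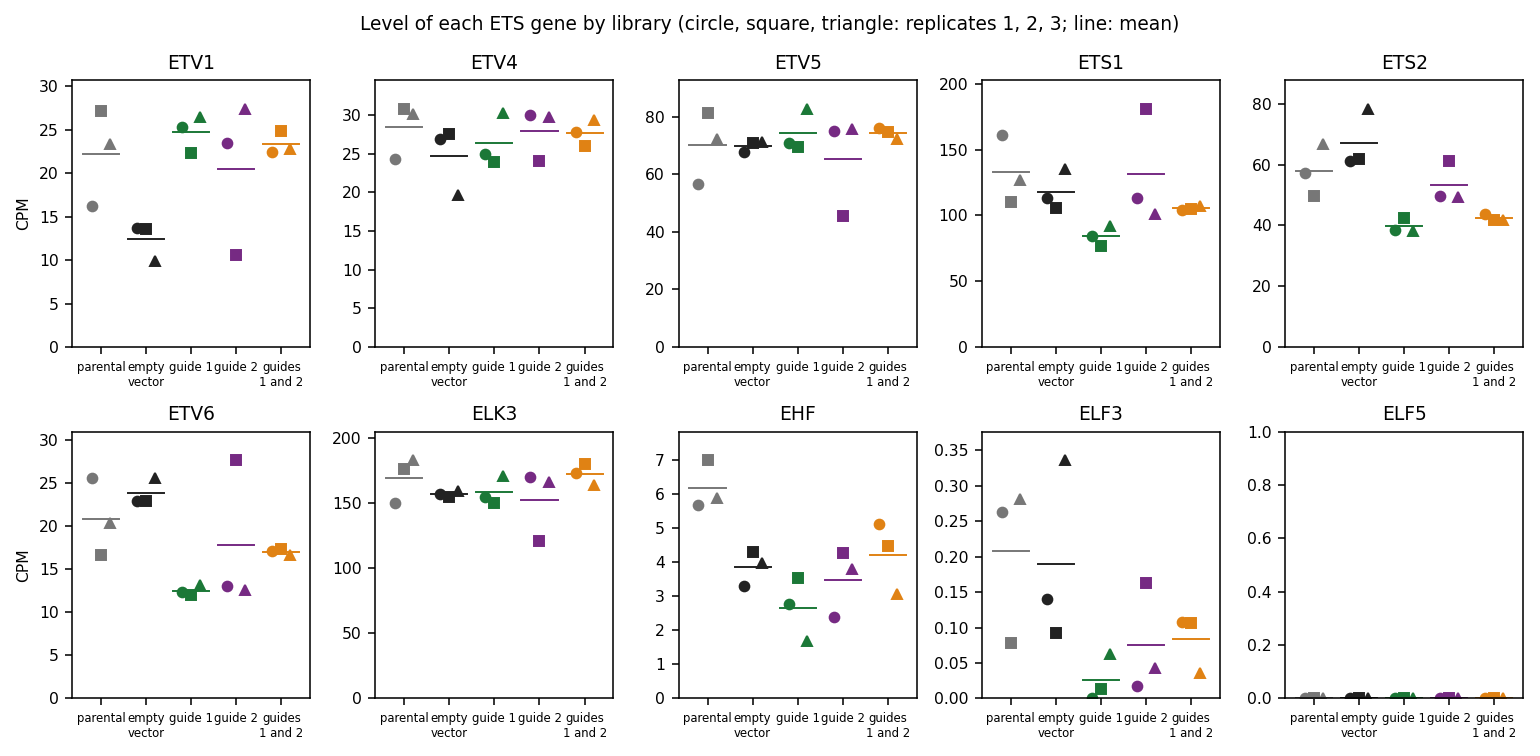
Level of each of the 10 ETS genes (vertical axes, CPM, each from 0) in the 15 libraries, by genotype; symbols are the replicates and lines the group means. ETV4, ETV5 and ELK3 sit at about the same height in each genotype, ETS2 and ETV6 are lowest in guide 1, ETV1 is lowest in empty vector, and ELF5 is at 0 throughout.

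Tests were made with edgeR's quasi-likelihood method on all 17457 genes that passed a filter on low counts, and a gene is called where the Benjamini-Hochberg adjusted p is under 0.05. Of the 10 genes 9 were tested, ELF5 having no counts. The empty vector is the main control and the parental cells a further one. The comparisons against one control share its 3 libraries, so they are not independent of each other.

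Among the PEA3 group, ETV1 had the widest range relative to its level. It stood at 13.7, 13.6 and 9.85 CPM in empty vector and at 16.2, 27.1 and 23.3 in parental cells. In the edited lines it stood at 25.3, 22.3 and 26.5 (guide 1), 23.5, 10.6 and 27.4 (guide 2) and 22.4, 24.9 and 22.8 (both guides). The empty vector libraries were lower than all others except guide 2 replicate 2, which lay among them. Mean levels ran from 12.4 ± 2.22 CPM in empty vector (SD, n = 3) through 20.5 ± 8.82 in guide 2, 22.2 ± 5.56 in parental and 23.3 ± 1.33 with both guides to 24.7 ± 2.18 in guide 1, and above empty vector each neighbour in that order differed from the next by less than their spread.

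Against empty vector, no edgeR call was made for ETV1. The log2 fold change was 0.98 (SE 0.282, adjusted p = 0.0586) in guide 1, 0.72 (SE 0.281, adjusted p = 0.184) in guide 2 and 0.89 (SE 0.282, adjusted p = 0.158) with both guides. For the mean of the 3 edited lines it was 0.86 (SE 0.241, edgeR adjusted p = 0.0508). The parental cells, which carry no edit, differed from empty vector by a similar 0.81 (SE 0.281, adjusted p = 0.125). Against parental cells the 3 lines were at 0.18, -0.09 and 0.08. DESeq2 called ETV1 higher than empty vector in guide 1 (adjusted p = 0.0101), with both guides (0.0472) and in parental cells (0.0496). It also called the mean of the 3 lines (0.85, adjusted p = 0.00487). Voom with sample quality weights, which counts a departing library for less, called ETV1 higher than empty vector in guide 1 (0.87, adjusted p = 2.18e-05) and guide 2 (0.92, 3.06e-05). Voom also called it with both guides (0.79, 9.12e-05), for the mean (0.86, 4.89e-06) and in parental cells (0.77, 0.000134). Without guide 2 replicate 2, edgeR called ETV1 higher than empty vector in guide 1 (0.97, adjusted p = 0.00151), in guide 2 (1.01, adjusted p = 0.00285), with both guides (0.88, adjusted p = 0.00885) and also in parental cells (0.79, adjusted p = 0.00777), and in none of the lines against parental cells. With that library left out, ETV1 was thus called higher than empty vector in the unedited parental cells as well as in the edited lines.

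ETV4 and ETV5, the members most often used as readouts of ERK, gave no edgeR call in any of the 12 comparisons, with or without guide 2 replicate 2. ETV5 stood at 56.5, 81.2 and 72.4 CPM in parental, 67.6, 71.0 and 71.3 in empty vector, 70.9, 69.3 and 82.7 in guide 1, 74.9, 45.6 and 75.7 in guide 2 and 76.1, 74.6 and 72.1 with both guides. The groups overlapped in all but the comparison of empty vector with both guides, and guide 2 replicate 2 was the lowest library. ETV5 log2 fold changes ran from -0.11 to 0.18 over the 12 comparisons, each with an SE of 0.170 for a pair of single groups, and without guide 2 replicate 2 from -0.04 to 0.12. No alternative called ETV5.
ETV4 stood at 24.3, 30.8 and 30.1 CPM in parental, 26.9, 27.5 and 19.6 in empty vector, 24.9, 23.9 and 30.2 in guide 1, 30.0, 24.1 and 29.8 in guide 2 and 27.8, 26.0 and 29.4 with both guides. All 5 groups overlapped one another. ETV4 log2 fold changes ran from -0.09 to 0.17, with an SE of 0.143 for a pair of single groups, and the smallest of its edgeR adjusted p-values was 0.556. They ran, in the fit without guide 2 replicate 2, from -0.18 to 0.25 (smallest edgeR adjusted p 0.289). Voom with sample quality weights, in which a library that departs from the model counts for less, called ETV4 lower in guide 1 than in parental cells (-0.24, adjusted p = 0.0146) and than in guide 2 (-0.27, adjusted p = 0.0226). Changes of the size of those SEs were not detectable in these libraries.

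**Figure D2:**
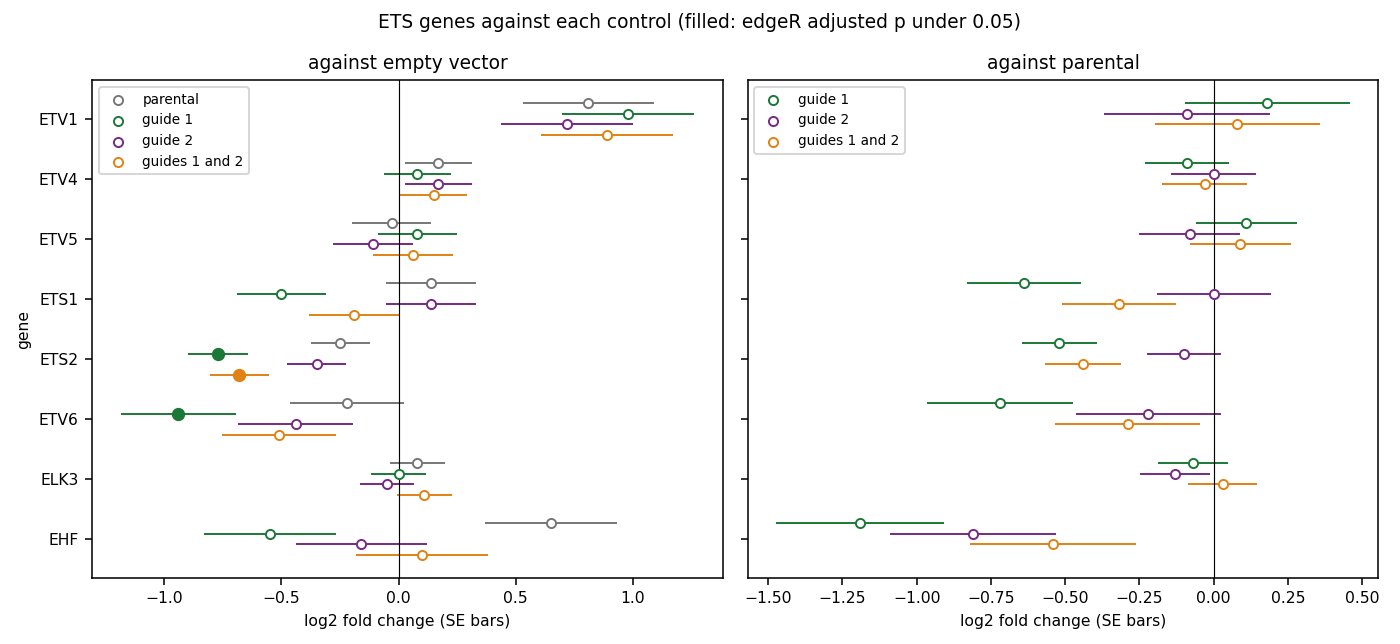
Log2 fold change (horizontal axis, with bars of 1 SE) of 8 ETS genes (vertical axis) in each genotype against empty vector (left) and against parental cells (right); filled points have an edgeR adjusted p under 0.05. The filled points are ETS2 in guide 1 and with both guides and ETV6 in guide 1, and all lie below 0; ELF3 is left out for its few counts and ELF5 for having none.

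Of the ERK-phosphorylated activators, ETS2 fell in guide 1 and with both guides against empty vector. ETS2 stood at 61.3, 61.7 and 78.3 CPM in empty vector and at 57.1, 49.8 and 66.8 in parental cells. It stood at 38.4, 42.4 and 38.2 in guide 1, 49.5, 61.1 and 49.2 in guide 2 and 43.8, 41.8 and 41.8 with both guides. Every edited library was below every empty vector library, and guide 1 and both guides were also below every parental library.

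ETS2 was called lower than empty vector in guide 1, the log2 fold change being -0.77 (SE 0.127, edgeR adjusted p = 0.00653), and with both guides, at -0.68 (SE 0.127, edgeR adjusted p = 0.0272). By edgeR it was not called in guide 2, at -0.35 (SE 0.127, adjusted p = 0.151), while voom called it there (-0.34, adjusted p = 0.00404). The mean of the 3 lines was lower, at -0.60 (SE 0.100, edgeR adjusted p = 0.00374). Against parental cells guide 1 was at -0.52 (adjusted p = 0.114), guide 2 at -0.10 (adjusted p = 0.951) and both guides at -0.44 (adjusted p = 0.195), with no edgeR call. With all libraries DESeq2 called ETS2 lower than parental cells in guide 1 (-0.53, adjusted p = 0.0134). Voom called it lower than parental cells in guide 1 (-0.67, adjusted p = 1.13e-05), guide 2 (-0.35, 0.00618) and both guides (-0.57, 0.000188). Voom called 52.9%, 32.5% and 21.3% of all genes in these comparisons. The direct edgeR test of guide 1 against guide 2 gave -0.42 (adjusted p = 0.317), with no call, though the libraries of these groups did not overlap. Voom called this difference (-0.32, adjusted p = 0.0135), where it called 20.2% of all genes. Without guide 2 replicate 2, ETS2 was called lower than empty vector in all 3 lines, guide 2 being at -0.48 (edgeR adjusted p = 0.0229), and lower than parental cells in guide 1 (-0.52, adjusted p = 0.0130). The call with both guides was lost without either of empty vector replicates 2 and 3 or any 1 of the 3 libraries with both guides, and in the fit with a replicate block, the highest adjusted p being 0.133 over all alternatives.

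ETS1 was not called by edgeR with all libraries in the fit. It stood at 161, 110 and 127 CPM in parental, 113, 106 and 135 in empty vector, 84.5, 76.4 and 92.1 in guide 1, 113, 181 and 101 in guide 2 and 104, 105 and 107 with both guides. The guide 1 libraries were below all 12 others, and guide 2 replicate 2 was the highest of the 15. The log2 fold change of ETS1 in guide 1 was -0.50 against empty vector (SE 0.192, adjusted p = 0.149) and -0.64 against parental cells (SE 0.192, adjusted p = 0.167). Both were called in the fit without guide 2 replicate 2, at -0.51 (edgeR adjusted p = 0.0136) and -0.63 (edgeR adjusted p = 0.0097).

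ETV6, the repressor, was called lower by edgeR in guide 1 against empty vector and, with all libraries in the fit, in no other comparison. It stood at 22.9, 22.9 and 25.6 CPM in empty vector and at 25.6, 16.6 and 20.3 in parental cells. It stood at 12.3, 12.0 and 13.2 in guide 1, 13.0, 27.6 and 12.6 in guide 2 and 17.1, 17.3 and 16.6 with both guides. Guide 2 replicates 1 and 3 lay with guide 1, while replicate 2 was the highest of all 15 libraries.

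The log2 fold change of ETV6 in guide 1 was -0.94 against empty vector (SE 0.246, edgeR adjusted p = 0.0429). It was -0.44 in guide 2 (SE 0.244, adjusted p = 0.359) and -0.51 with both guides (SE 0.244, adjusted p = 0.381). The call in guide 1 sat close to the threshold and was lost when any 1 library of empty vector, guide 1 or both guides, or parental replicate 3, was left out, and in the fit with a replicate block, with adjusted p-values up to 0.160 over all alternatives. With guide 2 replicate 2 left out, ETV6 was instead called lower than empty vector in all 3 lines, at -0.95 in guide 1 (edgeR adjusted p = 0.000307), -0.92 in guide 2 (edgeR adjusted p = 0.00127) and -0.52 with both guides (edgeR adjusted p = 0.0260). It was then also called lower than parental cells in guide 1 (-0.71, adjusted p = 0.00512) and guide 2 (-0.69, adjusted p = 0.0161). The edgeR value of ETV6 in guide 2 thus depended on that 1 library. With all libraries DESeq2 called ETV6 lower than empty vector in guide 1 (-0.95, adjusted p = 0.00453) and for the mean (-0.64, 0.0285). Voom called it lower in guide 1 (-0.92, adjusted p = 8.5e-07), guide 2 (-0.83, 4.27e-06) and both guides (-0.45, 0.000243). Voom also called it lower in the unedited parental cells (-0.23, adjusted p = 0.0263), which edgeR did not (-0.22, adjusted p = 0.672).

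ELK3, the ternary complex factor, gave no edgeR call, with or without guide 2 replicate 2. It ranged from 150 to 183 CPM in parental, 155 to 159 in empty vector, 150 to 171 in guide 1, 121 to 170 in guide 2 and 164 to 180 with both guides. Its log2 fold changes lay between -0.13 and 0.17, the smallest edgeR adjusted p being 0.694, and between -0.08 and 0.11 without guide 2 replicate 2 (smallest 0.383). Voom called ELK3 higher than empty vector in parental cells (0.18, adjusted p = 0.00904) and with both guides (0.14, adjusted p = 0.0348), and lower in guide 1 than in parental cells (-0.20, adjusted p = 0.0031).

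Among the epithelial members, EHF was highest in the parental cells. EHF stood at 5.67, 6.99 and 5.87 CPM in parental, 3.29, 4.31 and 3.97 in empty vector, 2.76, 3.52 and 1.68 in guide 1, 2.38, 4.28 and 3.79 in guide 2 and 5.12, 4.47 and 3.06 with both guides. The parental libraries were above all 12 others, empty vector included, and the other 4 groups overlapped one another. EHF was not called by edgeR in any of the 12 comparisons with all libraries in the fit. The log2 fold change against parental cells was -1.19 in guide 1 (SE 0.283, edgeR adjusted p = 0.105), -0.81 in guide 2 (SE 0.280, adjusted p = 0.502) and -0.54 with both guides (SE 0.279, adjusted p = 0.557), and empty vector stood below parental cells in turn, parental minus empty vector being 0.65 (SE 0.280, adjusted p = 0.222). Against empty vector the lines were at -0.55, -0.16 and 0.10. After guide 2 replicate 2 was left out, guide 1 was called lower than parental cells at -1.19 (edgeR adjusted p = 0.0150). DESeq2 called the same difference with all libraries (-1.20, adjusted p = 0.00337), and voom called EHF lower than parental cells in guide 1 (-0.99, adjusted p = 0.000796) and guide 2 (-0.94, adjusted p = 0.00471) and higher in parental cells than in empty vector (0.62, adjusted p = 0.0178).

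ELF3 had 15, 5 and 13 counts in the parental libraries, 8, 5 and 18 in empty vector, 0, 1 and 4 in guide 1, 1, 9 and 3 in guide 2 and 5, 6 and 2 with both guides. The most in any library was thus 18 counts, 0.336 CPM. Guide 1 held the fewest, and guide 2 replicate 2 the most among the edited libraries. ELF3 was not called in guide 1 against empty vector (edgeR adjusted p = 0.103) and was called lower without guide 2 replicate 2 (edgeR adjusted p = 0.0348), but no fold is given, since most guide 1 counts were at or under 3.

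Set side by side, the PEA3 group exceeded the epithelial members in every library. Per kb of exon, the summed level of ETV1, ETV4 and ETV5 was 15.6 to 25.4 CPM per kb and that of ELF3, EHF and ELF5 was 0.391 to 1.60. The ratio of these sums was 13.7, 15.8 and 16.9 in parental cells, 26.7, 21.3 and 19.7 in empty vector, 34.6, 26.0 and 64.9 in guide 1, 43.3, 15.7 and 27.8 in guide 2 and 19.6, 21.9 and 32.7 with both guides. Parental cells had the lowest ratios, guide 2 replicate 2 lying among them, and the highest were in guide 1 replicate 3 and guide 2 replicate 1. Between its highest and lowest library the PEA3 sum per kb varied 1.63-fold and the epithelial sum 4.09-fold.

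The same contrast on a log2 scale, the mean log2 CPM of the PEA3 group minus that of the epithelial members, was 6.59 ± 0.452 in parental (SD, n = 3), 6.53 ± 0.434 in empty vector, 7.75 ± 0.183 in guide 1, 7.18 ± 0.875 in guide 2 and 7.16 ± 0.326 with both guides. Guide 1, at 7.89, 7.54 and 7.81, lay above all 6 unedited libraries, which ran from 6.03 to 7.07. So did guide 2 replicates 1 and 3, at 7.85 and 7.50, while guide 2 replicate 2, at 6.19, lay among the unedited libraries. With both guides replicate 3, at 7.54, lay above them, and replicates 1 and 2, at 6.94 and 7.02, lay within their range. ELF5, at 0 throughout, and the prior count of 2 set much of the absolute size of this score, and ELF3, at its few counts, part of the difference between genotypes. Without ELF3, an alternative chosen after seeing the data, the means were 6.23 in parental, 6.24 in empty vector, 6.93 in guide 1, 6.55 in guide 2 and 6.58 with both guides. Guide 1 then ran from 6.58 to 7.37 beside 5.98 to 6.43 in the 6 unedited libraries, guide 2 from 5.87 to 7.03 and both guides from 6.41 to 6.80. No p is given for the score, since its members were chosen.

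**Figure D3:**
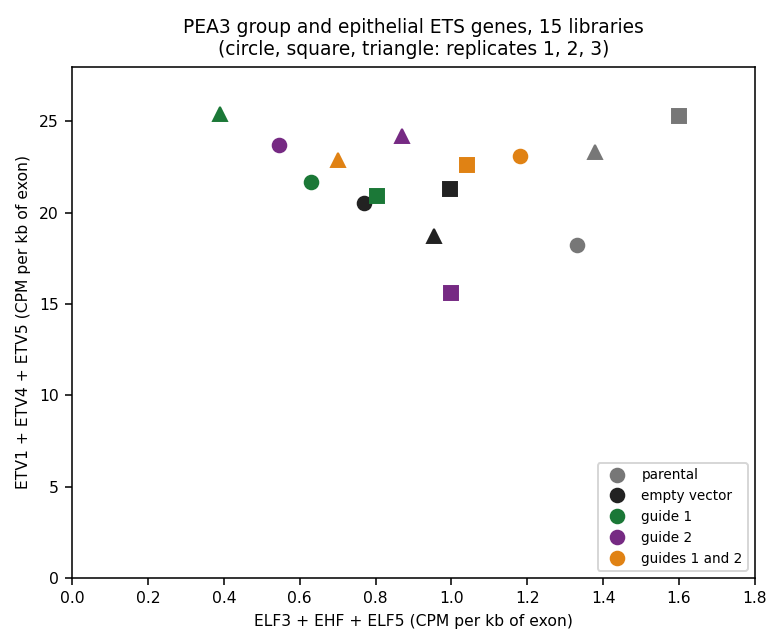
Summed level of ETV1, ETV4 and ETV5 (vertical axis) against that of ELF3, EHF and ELF5 (horizontal axis), both in CPM per kb of exon and both from 0, in the 15 libraries; colours are genotypes and symbols replicates. The vertical spread is 15.6 to 25.4 and the horizontal spread 0.391 to 1.60, with the parental libraries at the right.

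The counts of members called stand as follows beside the share called of all 17457 tested genes, by edgeR in each case. In guide 1 against empty vector 2 of 9 tested members were called, both lower, where 5.88% of all genes were called. With both guides it was 1 of 9, lower, where 0.962% of all genes were called, and for the mean of the 3 lines 1 of 9, lower, where 6.43% were. In guide 2 none was called (3.94% of all genes), with 2 at an unadjusted p under 0.05. In parental cells against empty vector none was called either (4.37% of all genes), again with 2 at an unadjusted p under 0.05. The median log2 fold change of the 9 members against empty vector was -0.50 in guide 1, -0.11 in guide 2 and 0.06 with both guides, beside 0.02, 0.03 and 0.00 over all genes.

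Against parental cells edgeR called no member in guide 1 (0.149% of all genes called), guide 2 (0.0516%), both guides (0.195%) or the mean of the lines (0.166%). At an unadjusted p under 0.05 these comparisons had 5, 1, 1 and 3 members. Between the lines edgeR also called no member, neither in guide 1 against guide 2 (0.0401% of all genes), nor in both guides against guide 1 (0.275%) or guide 2 (0.149%), with unadjusted counts of 2, 1 and 1. Few genes of any kind were called by edgeR in these 7 comparisons, so a count of 0 among 9 members is near the background.

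The other tools called more members and also more of all genes. Against empty vector DESeq2 called 3 of 9 members in guide 1 (11.1% of all genes by DESeq2), 0 in guide 2 (7.88%), 2 with both guides (4.33%), 3 for the mean (10.5%) and 1 in parental cells (9.33%). Against parental cells it called 2 in guide 1 (3.77% of all genes), 0 in guide 2 (0.786%), 0 with both guides (2.11%) and 1 for the mean (2.23%), and between the lines 0, 0 and 0 (1.17%, 2.20% and 0.861%). Voom with sample quality weights called 5 members in guide 1 against empty vector (42.5% of all genes by voom), 4 in guide 2 (33.2%), 4 with both guides (26.7%), 5 for the mean (36.8%) and 4 in parental cells (36.3%). Against parental cells voom called 7 in guide 1 (52.9% of all genes), 4 in guide 2 (32.5%), 4 with both guides (21.3%) and 6 for the mean (42.7%). Between the lines voom called 3 in guide 1 against guide 2 (20.2% of all genes), 5 in both guides against guide 1 (46.5%) and 1 in both guides against guide 2 (15.2%). With so large a share of all genes called by voom, its counts among 9 members say little about the members.

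Leaving out guide 2 replicate 2 raised the calls among members and among all genes alike. Members called against empty vector became 5 of 9 in guide 1 (18.1% of all genes), 3 in guide 2 (14.5%), 3 with both guides (6.70%), 4 for the mean (18.8%) and 1 in parental cells (13.9%). Against parental cells they became 5 in guide 1 (14.5% of all genes), 1 in guide 2 (5.96%), 0 with both guides (2.62%) and 5 for the mean (13.1%). Between the lines there was still none, where 0.162%, 4.55% and 1.83% of all genes were called.

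Of 18 further ETS genes 10 were tested, and the only one edgeR called in any comparison with all libraries in the fit was ELF4, an activator close to ELF1 and ELF2. ELF4 stood at 52.9, 56.3 and 57.3 CPM in empty vector, 53.9, 47.1 and 49.1 in parental, 41.9, 42.9 and 47.2 in guide 1, 46.8, 53.4 and 45.9 in guide 2 and 49.7, 48.4 and 48.5 with both guides. It was lower than empty vector in guide 1, at -0.35 (SE 0.0781, edgeR adjusted p = 0.0230) and for the mean of the lines, at -0.25 (SE 0.0628, edgeR adjusted p = 0.0302). Each of these calls was lost in 6 of 21 alternatives, among them leaving out empty vector replicate 2 or 3. In the fit without guide 2 replicate 2, edgeR called ELF4 (-0.29, adjusted p = 0.0200) and ELF1 (-0.32, adjusted p = 0.0232) lower in guide 2 than in empty vector, where 14.5% of all genes were called. Against parental cells it then called 4 of these genes lower in guide 1, ERF (-0.51), ELK4 (-0.37), ELF1 (-0.32) and ELF2 (-0.25), again beside 14.5% of all genes. With all libraries voom called 1 to 9 of the 10 in every comparison, with 6 in guide 1 against empty vector (42.5% of all genes) and 9 against parental cells (52.9%). ELK4 was the most abundant of the 18 by CPM, at 135 to 220, and ELF1 the highest per kb of exon, at a mean of 17.1 CPM per kb. FLI1 and ERF, an activator and a repressor, were highest in guide 2 replicate 2, at 29.7 and 71.7 CPM, and next highest in parental replicate 1, at 19.6 and 61.0. The 8 untested genes, ETV3L, ETV7, ERG, FEV, SPDEF, SPI1, SPIB and SPIC, had at most 75 counts each over all libraries, and ETV3L and FEV had none. Of the 28 ETS genes in all, 19 were tested.

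**Figure D4:**
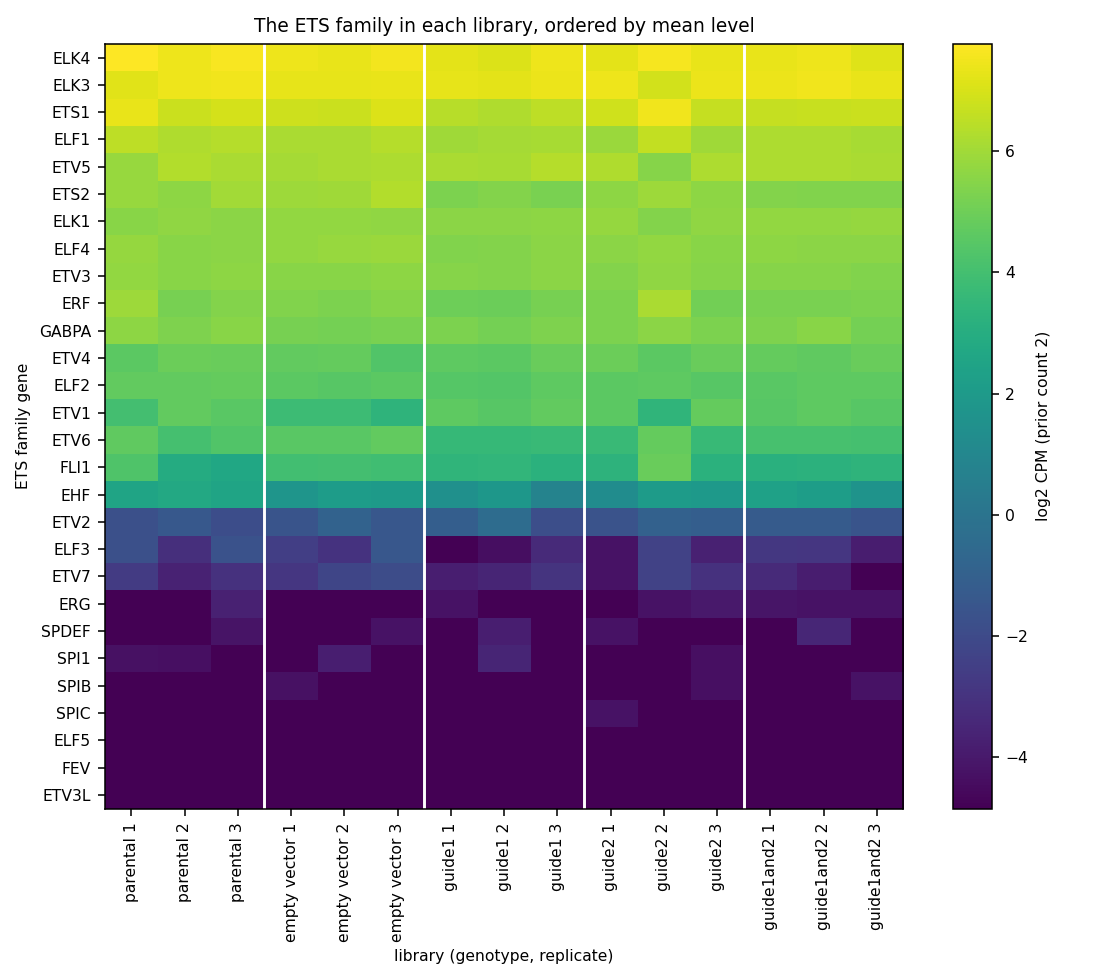
Heat map of log2 CPM (colour, prior count 2) of the 28 ETS genes (rows, ordered by mean level) in the 15 libraries (columns, white lines between genotypes). ELK4, ELK3 and ETS1 form the top rows, EHF is the lowest row with more than 1 CPM in every library, and guide 2 replicate 2 is the column that departs from its neighbours in ETV1, ETV6, FLI1 and ERF.

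ERK feedback genes, the sprouty, SPRED and dual-specificity phosphatase genes that ERK induces and that restrain it, were called in both directions. Of 9 tested, edgeR called SPRY2 higher and SPRED2 lower in guide 1 against empty vector (5.88% of all genes called), SPRY2 alone in guide 2 (3.94%), and none with both guides (0.962%). With both guides 2 had an unadjusted p under 0.05, DESeq2 called 2 (4.33% of all genes) and voom 4 (26.7%). With guide 2 replicate 2 left out, edgeR called 3 in guide 1 (18.1% of all genes), 3 in guide 2 (14.5%) and 2 with both guides (6.70%). DUSP6, the ERK phosphatase, was then lower than empty vector in guide 1 (-0.83, adjusted p = 0.0170), in guide 2 (-1.04, adjusted p = 0.0137) and in parental cells (-1.08, adjusted p = 0.00658). SPRY2 stood at 16.1, 16.1 and 13.6 CPM in empty vector, 20.6, 22.6 and 20.1 in parental, 21.2, 19.6 and 18.6 in guide 1, 24.4, 22.6 and 23.5 in guide 2 and 19.0, 21.3 and 21.8 with both guides. As with ETV1, the empty vector libraries were the low ones. SPRY2 was higher than empty vector by a log2 fold change of 0.37 in guide 1 (edgeR adjusted p = 0.0409), 0.61 in guide 2 (edgeR adjusted p = 0.00524) and 0.44 in parental cells (edgeR adjusted p = 0.0234). SPRED2 was lower than empty vector, at a log2 fold change of -0.36 in guide 1 (edgeR adjusted p = 0.0159) and -0.34 in parental cells (edgeR adjusted p = 0.0238). The guide 1 call held in 8 of 21 alternatives for SPRY2 and in 18 for SPRED2, and both parental calls in 14; the SPRY2 call in parental cells was lost without any 1 library of either control. The median log2 fold change of the 9 feedback genes against empty vector was 0.08 in guide 1, -0.09 in guide 2 and 0.04 with both guides, and against parental cells it was 0.24, 0.53 and 0.17, beside medians of all genes between -0.02 and 0.03. Against parental cells edgeR called none of the 9 in guide 1, guide 2 or both guides (0.149%, 0.0516% and 0.195% of all genes). There 2, 3 and 3 had an unadjusted p under 0.05. DESeq2 called 1, 2 and 2 (3.77%, 0.786% and 2.11% of all genes) and voom 7, 4 and 4 (52.9%, 32.5% and 21.3%). Once guide 2 replicate 2 was left out, edgeR called SPRY4, a sprouty gene, higher than parental cells in guide 1 (0.78, adjusted p = 0.000851), guide 2 (0.83, adjusted p = 0.00127) and both guides (0.73, adjusted p = 0.00207). SPRY4 stood at 59.3, 61.6 and 61.4 CPM in parental cells and at 104, 100 and 83.4 in the unedited empty vector. In the edited lines it stood at 117, 102 and 90.5 (guide 1), 112, 58.7 and 102 (guide 2) and 98.5, 96.6 and 105 (both guides). The parental libraries were thus low beside empty vector as well as beside the edited lines, guide 2 replicate 2 excepted.

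Among regulators of the PEA3 group, ATXN1, a partner through which CIC represses its targets, was called. ATXN1 stood at 13.7, 15.9 and 22.3 CPM in empty vector and 8.17, 10.1 and 13.6 in parental cells. It stood at 6.55, 7.24 and 5.11 in guide 1, 5.42, 7.09 and 6.20 in guide 2 and 8.52, 7.67 and 7.13 with both guides. All edited libraries were below all empty vector libraries, and the parental mean, 10.6 ± 2.73 CPM (SD, n = 3), lay between those of the edited lines and the 17.3 ± 4.48 of empty vector. ATXN1 was lower than empty vector, at a log2 fold change of -1.47 in guide 1 (SE 0.220, edgeR adjusted p = 0.00424), -1.49 in guide 2 (SE 0.220, edgeR adjusted p = 0.00399) and -1.18 with both guides (SE 0.218, edgeR adjusted p = 0.0272). Parental cells were at -0.74 (SE 0.216, adjusted p = 0.0695). Against parental cells ATXN1 was at -0.73, -0.75 and -0.44 and was not called. Without guide 2 replicate 2 it was also called lower in parental cells than in empty vector (-0.76, edgeR adjusted p = 0.0272) and in guide 1 than in parental cells (-0.72, edgeR adjusted p = 0.0378). The call with both guides was lost without empty vector replicate 2 or 3 or any 1 of the 3 libraries with both guides, and in the fit with a replicate block (edgeR adjusted p = 0.0595), with adjusted p-values up to 0.145 over all alternatives. The guide 2 call was lost with only the groups compared in the fit (edgeR adjusted p = 0.0835). CIC itself stood at 47.7 to 63.1 CPM and was not called by edgeR with all libraries, and neither were ATXN1L, COP1 and DET1. Once guide 2 replicate 2 was left out, CIC was called lower in guide 1 than in empty vector (-0.25, edgeR adjusted p = 0.0331). It stood at 50.8, 49.9 and 47.7 CPM in guide 1 and at 51.9, 59.0 and 63.1 in empty vector. The unedited parental cells, at 52.9, 49.9 and 51.7, lay near guide 1.

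Of 8 genes of invasion that ETS factors are known to activate, edgeR called 5 lower in guide 1 than in empty vector, MMP1, MMP9, MMP10, MMP14 and PLAU, where 5.88% of all genes were called. In guide 2 it called 4 lower, the same without MMP1 (3.94% of all genes), and with both guides none (0.962%). With both guides 6 had an unadjusted p under 0.05, DESeq2 called 3 (4.33% of all genes) and voom 5 (26.7%). MMP3, MMP13 and PLAUR were not called, their log2 fold changes in guide 1 being -4.08, -1.26 and -0.29; MMP3 and MMP13 averaged 0.293 and 0.242 CPM in empty vector. With guide 2 replicate 2 left out, edgeR called 6 in guide 1 (18.1% of all genes), 5 in guide 2 (14.5%), 4 with both guides (6.70%) and 4 in parental cells (13.9%). PLAU, the urokinase gene, stood at 109, 115 and 256 CPM in empty vector, 62.8, 64.9 and 112 in parental, 35.0, 34.6 and 36.5 in guide 1, 44.4, 46.2 and 35.7 in guide 2 and 81.6, 76.9 and 71.4 with both guides. Its log2 fold change against empty vector was -2.20 in guide 1 (SE 0.305, edgeR adjusted p = 0.00312) and -1.95 in guide 2 (SE 0.303, edgeR adjusted p = 0.00525). MMP14, a membrane-bound matrix protease, stood at 201, 213 and 337 CPM in empty vector, 142, 135 and 180 in parental, 121, 116 and 122 in guide 1, 126, 152 and 124 in guide 2 and 151, 148 and 149 with both guides. MMP14 was lower than empty vector, at -1.08, in guide 1 (SE 0.173, edgeR adjusted p = 0.00578), and it was the only one called in parental cells, at -0.75 (SE 0.172, edgeR adjusted p = 0.0291). The parental call held in 17 of 21 alternatives and was lost without empty vector replicate 3, without parental replicate 1 or 2, and with only the groups compared, with adjusted p-values up to 0.118. MMP9, a gelatinase, was at 1.30, 1.88 and 18.5 CPM in empty vector and at 0 in the 3 guide 1 libraries. Empty vector replicate 3 was thus the highest library for all 3 of these genes, and without it the guide 1 calls of MMP1 and MMP10, which stayed at or below 1.59 CPM, were lost, as were the guide 2 calls of MMP9 and MMP10 and the parental call of MMP14, while the guide 1 calls of PLAU, MMP14 and MMP9 remained. Against parental cells edgeR called none of the 8 in guide 1, guide 2 or both guides (0.149%, 0.0516% and 0.195% of all genes). There 3, 2 and 0 had an unadjusted p under 0.05. DESeq2 called 2, 0 and 0 (3.77%, 0.786% and 2.11% of all genes), and voom called 6, 5 and 0 (52.9%, 32.5% and 21.3%). The fit without guide 2 replicate 2 called 2, 0 and 0 of them against parental cells (14.5%, 5.96% and 2.62% of all genes).

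Of 13 genes of the epithelial state 11 were tested, and in guide 1 against empty vector edgeR called CDH1, GRHL1, a grainyhead factor of epithelia, and KRT18, a simple-epithelial keratin, lower (5.88% of all genes called), and called none in the other lines (3.94% and 0.962%). In those, 0 and 1 had an unadjusted p under 0.05 in guide 2 and with both guides. DESeq2 called 0 and 0 (7.88% and 4.33% of all genes), and voom 10 and 4 (33.2% and 26.7%). KRT18 was lower, at -0.52 (SE 0.103, edgeR adjusted p = 0.0140) and GRHL1 at -2.12 (SE 0.556, edgeR adjusted p = 0.0433). CDH1 passed narrowly (edgeR adjusted p = 0.0447), at 44.1, 46.8 and 127 CPM in empty vector against 0.0191, 0.152 and 0.158 in guide 1. The KRT18 call held in 18 of 21 alternatives, the GRHL1 call in 10 and the CDH1 call in 8, and all 3 were lost without empty vector replicate 3. Without guide 2 replicate 2, 9 of the 11 were called in guide 1 (18.1% of all genes), 7 in guide 2 (14.5%) and 0 with both guides (6.70%).

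Markers of cell state were called in the comparison in which ETS2 and ETV6 fell, guide 1 against empty vector (5.88% of all genes). Of 7 basal markers edgeR called KRT17, a keratin, at -4.89 (SE 1.22, adjusted p = 0.0346) and LAMB3, a laminin chain, at -0.78 (SE 0.185, adjusted p = 0.0284). Of 5 luminal markers tested it called KRT18, as above, and FOXA1, a luminal transcription factor, at -1.53 (SE 0.363, adjusted p = 0.0290). Of 9 mesenchymal markers it called DCN, decorin, higher at 2.87 (SE 0.552, adjusted p = 0.0124) and COL1A1, a collagen chain, lower at -1.61 (SE 0.341, adjusted p = 0.0183). Each of these guide 1 calls was lost without empty vector replicate 3. LAMB3 was also called lower than empty vector in parental cells (-1.20, edgeR adjusted p = 0.0060) and guide 2 (-0.89, edgeR adjusted p = 0.0202), and COL1A1 in guide 2 (-1.74, edgeR adjusted p = 0.0166) and with both guides (-1.81, edgeR adjusted p = 0.0293). Of these, the calls in guide 2 and with both guides were likewise lost without empty vector replicate 3. The LAMB3 call in parental cells held in all 21 alternatives. TEK, an endothelial receptor at no more than 0.903 CPM in any library, was called lower in guide 2 (-1.12, edgeR adjusted p = 0.0200) and parental cells (-1.46, edgeR adjusted p = 0.0080). In the fit without guide 2 replicate 2, edgeR called 6 of the 7 basal, 2 of the 5 luminal and 4 of the 9 mesenchymal markers in guide 1 (18.1% of all genes). The part of these markers in the ETS differences was not tested.

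ETV6 differed between libraries alongside CDH1, also within guide 2, and ETV1 was lowest in libraries of high CDH1. Between guide 2 replicate 2 and replicates 1 and 3 of its group, 76.8% and 76.6% of genes with at least 20 counts differed by more than sampling noise. Replicates 1 and 3 differed in 33.4%, and the highest share in another group was 65.8%, for parental replicates 1 and 2. The departure of that library was thus not particular to these genes. In the 5 edited libraries with CDH1 at or below 0.158 CPM, ETV6 was at 12.0 to 13.2 CPM. In the 3 libraries with both guides, with CDH1 between 14.8 and 23.4, ETV6 was at 16.6 to 17.3, and guide 2 replicate 2, with 91.4 of CDH1, had 27.6. Parental replicate 2, the one unedited library with CDH1 at 1.79, had the lowest ETV6 of its group, 16.6, and the highest ETV1 and EHF, 27.1 and 6.99. ETV1 was lowest, at 9.85 and 10.6 CPM, in the 2 libraries of highest CDH1. With both guides, however, it stood at 22.4 to 24.9, and in parental replicate 3 (CDH1 37.8) at 23.3, beside 22.3 to 26.5 in guide 1. ELF4 differed in the same order as ETV6, at 41.9 to 47.2 CPM in the 5 edited libraries of lowest CDH1. It stood at 48.4 to 49.7 with both guides and at 53.4 in guide 2 replicate 2. EHF was at 5.12, 4.47 and 3.06 CPM with both guides, where CDH1 was at 23.4, 17.3 and 14.8, and in guide 2 it was highest in replicate 2, while parental replicate 2 had high EHF with little CDH1. Because the CDH1 values fall into separate clusters no pooled correlation is given, and the part of the epithelial state in the ETS differences was not tested. In such bulk samples a smaller share of cells of a type and less RNA per cell cannot be told apart.

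**Figure D5:**
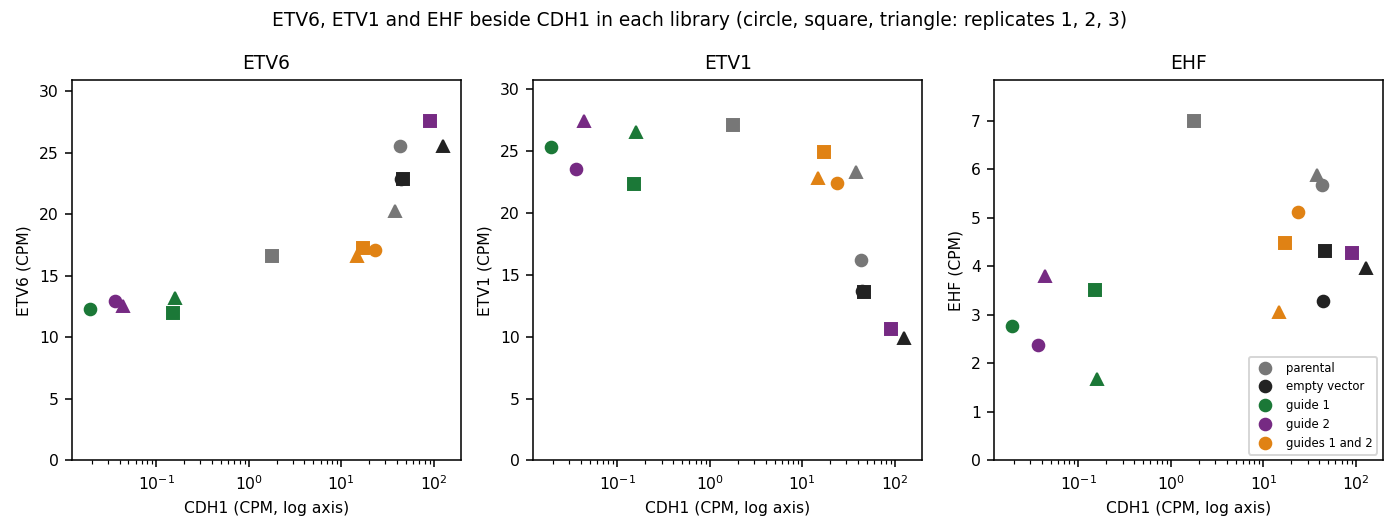
Level of ETV6, ETV1 and EHF (vertical axes, CPM from 0) against CDH1 (horizontal axes, CPM, log scale) in each of the 15 libraries, coloured by genotype. ETV6 is at 12.0 to 13.2 where CDH1 is at or below 0.158 and at 20.3 to 27.6 where it is at or above 37.8, ETV1 is lowest where CDH1 is highest, and the parental libraries are the highest in EHF.

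Among 11616 genes compared by Pearson's r of log2 CPM over the 15 libraries, the closest in pattern to ETV5 were SUSD1 (0.966), GOLPH3L (0.962) and FADS2 (0.962), and without guide 2 replicate 2 these values were 0.898, 0.889 and 0.918. Those closest to ETV4 were C21orf58 (0.859), LYPD6 (0.846) and EBP (0.841), and without that library they were 0.853, 0.866 and 0.866. Those closest to EHF were OTX1 (0.842), TRPS1 (0.786) and DOCK11 (0.782), and without that library 0.871, 0.789 and 0.790. For ELF3, with its 95 counts, they were CD2AP (0.962), U2SURP (0.953) and KIF1B (0.949), and without that library 0.966, 0.964 and 0.948. These are the highest of many values over libraries that share genotypes, and describe likeness only. ELF5, at 0 throughout, has no pattern to compare.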

How the data were processed

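RNA of 15 libraries, 3 per genotype, was grouped by the sample titles. The authors deposited whole-number read counts per gene and a table of CPM, which equals the deposited counts divided by the library total to within 4.91e-11. Per the submitters' processing notes, reads were trimmed with Trim Galore 0.6.0 and aligned with STAR 2.7.8a on GRCh38; the counter, the gene models and whether strand was used are not given in the sources used here. Replicates differed by more than sampling noise, with 24.6% to 76.8% of genes beyond it in each pair by a chi-square statistic.

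Counts were tested with edgeR 4.0.16 in R 4.3.3: filterByExpr, TMM scaling, 1 group-means model over all 15 libraries with 10 residual degrees of freedom, 12 comparisons, two-sided, with Benjamini-Hochberg adjustment over 17457 genes. The procedure was tested on simulated counts. A standard error is the size of the log2 fold change over the root of its F statistic. Log2 CPM used a prior count of 2. Exon lengths and positions came from GENCODE release 29 and promoters from RefSeq, and plots were drawn with matplotlib 3.10.9. Genes named are NF1, the 10 members, further ETS genes called in any comparison, genes of the feedback, regulator, invasion and epithelial state lists that edgeR called with all libraries, and the 3 genes nearest in pattern to ETV4, ETV5, ELF3 and EHF (average log2 CPM of at least 1). Others (FLI1, ERF, ELK4, ELF1, KRT5, FN1, CIC, the cell markers, the list genes given as not called and those called only by another tool or without guide 2 replicate 2) were named after their values were seen. Part of the list of PEA3 regulators is not reported here. The members and lists were chosen with earlier results of these data known. Alternatives were RLE scaling, no filter, DESeq2 1.42.0, a replicate block, voom with sample quality weights in limma 3.58.1, only the groups compared, and each library left out in turn; the score without ELF3 was added after seeing the data.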

Additional observations from a re-analysis of the deposited data

How the results depend on the processing

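Depth limits ELF3, with 95 counts in all, and ELF5, with 0. ETS2 was called lower than empty vector in guide 1 (adjusted p 4.87e-06 to 0.0341) and for the mean of the lines (8.27e-06 to 0.0401) in all 21 alternatives, and with both guides in 15 of 21. The scaling moved the median of all genes by at most 0.011 (log2). With RLE scaling the number of members called stayed within 1.5 times in every comparison.

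The number of members called against empty vector was 2, 0, 1, 1 and 0 in guide 1, guide 2, both guides, the mean of the lines and parental cells. By voom with sample quality weights, which called 26.7% to 42.5% of all genes there, it was 5, 4, 4, 5 and 4, and by DESeq2 (4.33% to 11.1% of all genes) it was 2 with both guides, 3 for the mean and 1 in parental cells. Without the filter it was 3 for the mean. With only the groups compared it was 4 in guide 1 and 3 with both guides. Leaving out 1 library at a time gave 1 to 5 in guide 1, 0 to 3 in guide 2, 0 to 3 with both guides, 1 to 4 for the mean and 0 to 1 in parental cells. Against parental cells the number was 0 throughout; voom gave 7, 4, 4 and 6 in guide 1, guide 2, both guides and the mean, DESeq2 gave 2 in guide 1 and 1 for the mean, and leaving out 1 library gave 0 to 5 in guide 1, 0 to 1 in guide 2 and 0 to 5 for the mean. Between lines, also 0, voom gave 3 in guide 1 against guide 2, 5 in both guides against guide 1 and 1 in both guides against guide 2, and the fit of only the groups compared gave 2 in both guides against guide 1. The cause of these changes was not tested, other than that the highest counts of the left-out fits came without guide 2 replicate 2. In that fit 18.1%, 14.5%, 6.70%, 18.8% and 13.9% of all genes were called against empty vector, in the order above. Against parental cells it was 14.5%, 5.96%, 2.62% and 13.1%. No share of all genes is given for the fits without the filter, of only the groups compared, with a replicate block or without another library. The counts of those fits are thus not read as results about the members. ETV6 in both guides against guide 2, -0.07 and not called, turned to 0.38 by voom (SE 0.0834, adjusted p = 0.00667).

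The replicate numbers pair nothing by the labels, and deviations of equally numbered libraries had a mean correlation of -0.05 over 30 pairs (-0.75 to 0.28). With the replicate number as a block, 1 member was called in guide 1 against empty vector (ETS2), 1 for the mean of the lines and 0 with both guides, where ETS2 was at -0.68 (adjusted p = 0.0631), and ATXN1 with both guides was lost as well (adjusted p = 0.0595).

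The log2 contrast of the PEA3 group with the epithelial members was 7.33, 7.27, 8.82 and 7.97 in parental, empty vector, guide 1 and both guides with a prior count of 0.5, and 6.03, 5.97, 6.97 and 6.53 with a prior count of 5. Without ELF5 it was 4.90, 4.97, 6.60, 5.84 and 5.73 in parental, empty vector, guide 1, guide 2 and both guides. Without ETV1 it was 7.11 in empty vector and 8.03 in guide 1. Without ELF3, an alternative chosen after seeing the data, it was 6.93 in guide 1 and 6.58 with both guides. Guide 1 had the highest mean under each of these.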
